A study of Mus musculus with 4 samples.

Results

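Expression of the genes of TGF-beta and BMP7 signalling was examined in whole kidneys of mice with experimental membranous nephropathy (MN), an immune complex disease of the outer face of the glomerular filter. The genes were the 9 symbols Tgfb1, Tgfb2, Tgfb3, Tgfbr1, Tgfbr2, Bmp7, Smad3, Smad7 and Ltbp1, chosen by name out of 34650 gene or transcript names on the array, and every non-control spot carrying one of these names was used: 16 probes of 55681, and 34 of its 59305 non-control spots. The MN group (2 arrays) consisted of female BALB/C mice, 6 weeks old when housed, that were primed once with 0.2 mg of cationic bovine serum albumin in complete Freund's adjuvant and, from 2 weeks later, were given the same protein intravenously at 13 mg/kg, 3 times a week for 6 weeks. The control group (2 arrays) was of the same strain, sex and age, had the same priming injection, and received only vehicle on that schedule, named saline in one label and PBS in another. Priming and adjuvant were thus common to all mice, and only the intravenous course set MN apart. The labels do not say whether an array held RNA of 1 animal or of several, so p-values cover only the variation among these arrays, which may be technical.

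TGF-beta is secreted in a latent form, bound to its own propeptide and tethered to matrix by latent TGF-beta binding proteins such as the product of Ltbp1, and must be released before it can act. The free ligand binds the type II receptor (Tgfbr2), which recruits and phosphorylates the type I receptor (Tgfbr1). That kinase activates SMAD2 and SMAD3, which enter the nucleus with SMAD4 and switch on matrix and matricellular genes, while SMAD7 is induced by the same signal and blocks the receptor. In the kidney this pathway is best known as a driver of glomerular and interstitial scarring, and BMP7, a ligand of the same superfamily that signals through SMAD1, SMAD5 and SMAD9 and is made by tubular and podocyte cells, is known for opposing it.

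RNA was labelled with Cy3 and hybridised to 1-colour Agilent arrays, 1 sample per array, and each slide carried 1 MN and 1 control array, so that the arrays numbered 1 shared slide 1 and those numbered 2 shared slide 2. Between 63.1% and 64.0% of non-control spots on the MN arrays were well above background, against 65.9% and 79.5% on control arrays 1 and 2. No spot was saturated. All 25 kidney markers examined (podocyte, proximal tubule, loop and distal tubule, collecting duct) were well above background on all 4 arrays. The raw signal of the member probes that were tested was 2.82 to 363 times the local background. Levels below are log2 of the background-corrected signal relative to each array's 75th percentile, so that 0 is the level of a fairly bright spot. A level belongs to its probe and is not set against the level of another probe. In whole-kidney RNA, fewer cells of a type and less RNA per cell cannot be told apart. Precision is limited by there being 2 arrays a group.

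The comparison asked whether transcripts of these 9 genes differed in MN kidneys. None of the 9 passed the test in either direction. Of the 16 probes, 14 were tested (the filter asked for signal well above background on every array of 1 group, and all 14 had it on all 4 arrays), and 0 of the 14 passed limma with Benjamini-Hochberg adjustment over all 36271 tested probes at a threshold of 0.05. On the whole array 7 probes passed (0.0193%), all higher in MN. With the slide as a replicate block 0 probes passed on the array. The smallest adjusted p of a member was 0.744, and 0 of the 14 had an unadjusted p under 0.05, against 6.97% of all tested probes (3.45% higher and 3.52% lower). In the fit with the slide as a block 1 of the 14, the dimmer Smad3 probe, did (unadjusted p = 0.0431 and adjusted p = 0.323 in limma). Over the array, 2169 higher and 3234 lower probes of 36271 had an unadjusted p under 0.05 in that fit, so the count does not single out Smad3. Differences (MN minus control) were above 0 for 6 probes and below 0 for 8 (37.8% and 62.2% of all tested probes), and 0 of 14 reached 2-fold, against 2.82% of all tested probes. Their median absolute size was 0.16 on the log2 scale, against 0.15 over all tested probes.

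**Figure D1:**
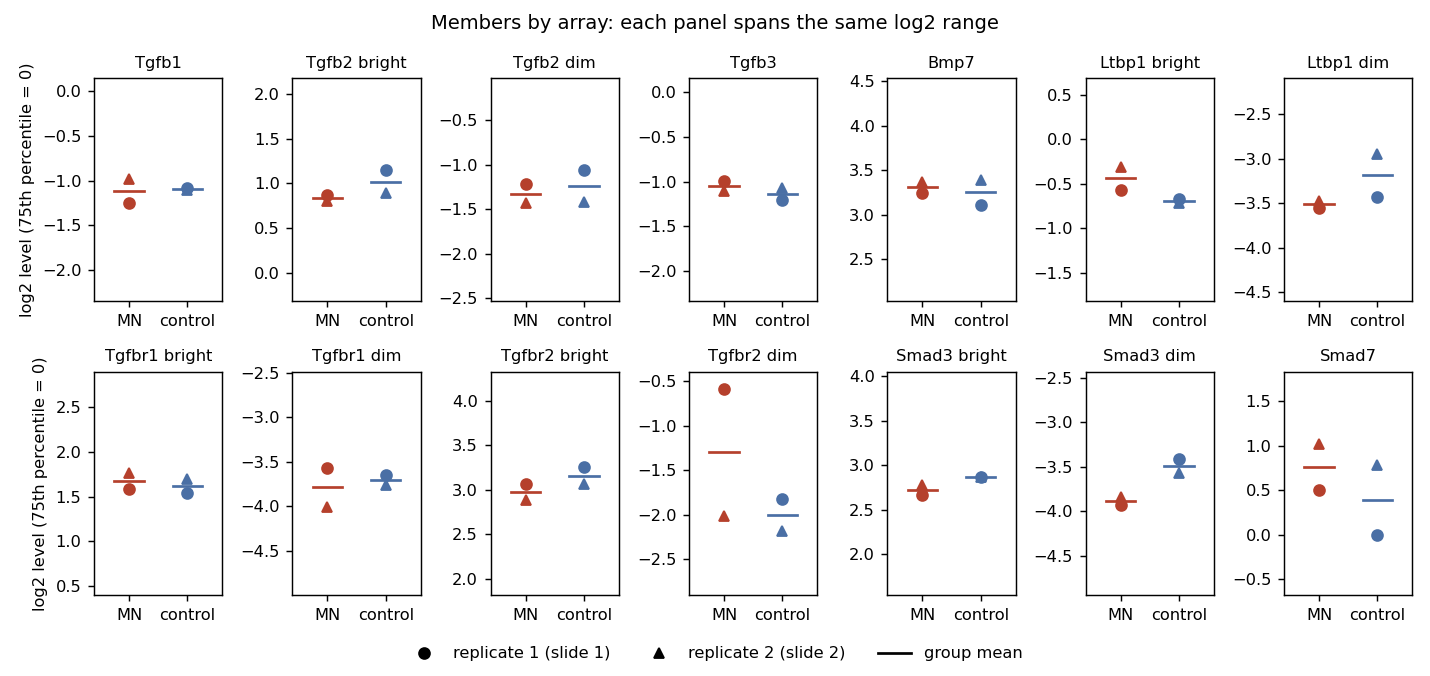
Log2 level of the 14 tested member probes, 1 panel per probe, each spanning the same number of log2 units around its own mean. Red points are MN arrays and blue points control arrays, circles are slide 1, triangles slide 2 and bars the group means. For genes with several tested probes the brighter and the dimmer one are shown apart. The MN array of slide 1 stands well above the other 3 arrays in the panel of the dimmer Tgfbr2 probe, and in most other panels the groups overlap.

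**Figure D2:**
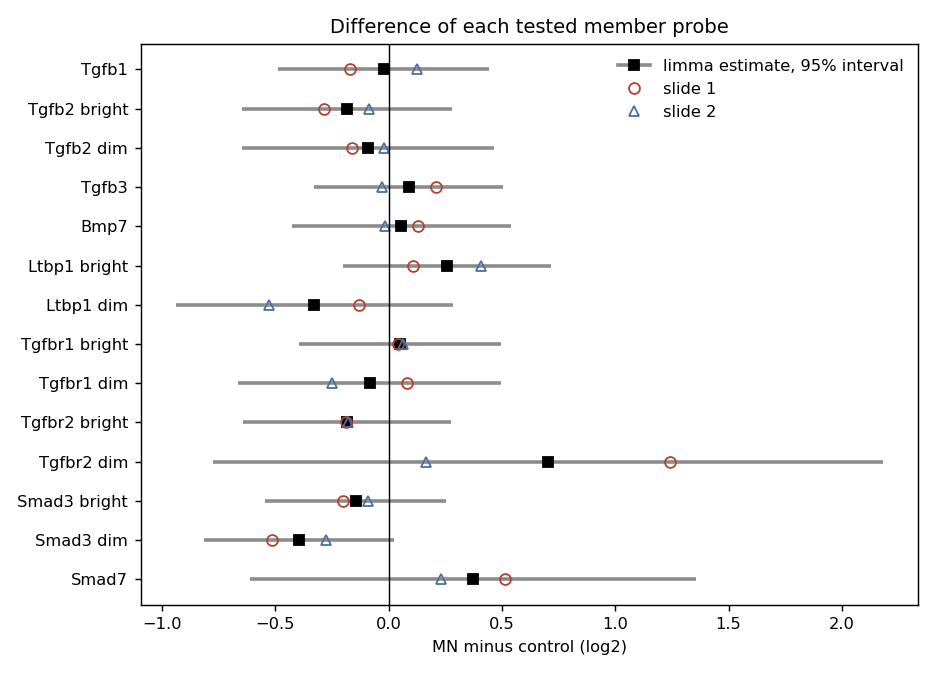
MN minus control on the log2 scale for the same 14 probes. Black squares with grey bars are the limma estimates with their 95% intervals, open circles the difference within slide 1 and open triangles the difference within slide 2. All 14 intervals include 0, and the widest belong to the dimmer Tgfbr2 probe and to Smad7.

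Among the ligands, Tgfb1, the isoform most studied in renal scarring, and Tgfb3 each had 1 probe that was printed 10 times on every array, so that their error could be measured within arrays as well as between them. The probes are shown because of this repeated printing, which bears on the spot error and not on the spread between arrays. The SE of the MN minus control difference was 0.17 for Tgfb1 and 0.15 for Tgfb3, against a median of 0.17 over the tested member probes. Each is 60 bases long, and the first 30 bases are given as the scanner files list them, 5′ to 3′, with no part singled out by capitals. The Tgfb1 probe lies at chr7:26489877-26489936 on the plus strand and the Tgfb3 probe at chr12:87397804-87397863 on the minus strand (mm9, per the file headers).
Tgfb1: actgcccatcgtctactacgtgggtcgcaa
Tgfb3: tcccatgtctgacatgatgactcggcccca

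Tgfb1 had a log2 level of -1.25 and -0.98 on the MN arrays, against -1.08 and -1.11 on the control arrays. One MN array was below and the other above both control arrays, so the groups overlapped, and the difference was -0.02 ± 0.17 (SE; 95% interval -0.49 to 0.44; limma adjusted p = 0.9999). The 10 spots of an array spread far less than this. Their SD was 0.05 and 0.04 on the MN arrays, and 0.08 and 0.07 on the control arrays. Within slide 1 the MN array was lower by -0.17 (SE over spots 0.03), and within slide 2 it was higher by 0.13 (SE over spots 0.03). The 2 MN arrays differed from each other by 0.27 (SE over spots 0.02), and the 2 control arrays by -0.03 (SE 0.03). The direction of the Tgfb1 difference therefore changed between slides by more than the spot error.

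Tgfb3, the isoform known for its part in palate and lung development, had a log2 level of -0.997 and -1.10 in MN, against -1.20 and -1.07 in control. The groups overlapped and the difference was 0.09 ± 0.15 (95% interval -0.33 to 0.50; limma adjusted p = 0.9999). Within slides it was 0.21 (SE over spots 0.04) and -0.03 (SE over spots 0.03), so it exceeded the spot error on slide 1 and not on slide 2.

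**Figure D3:**
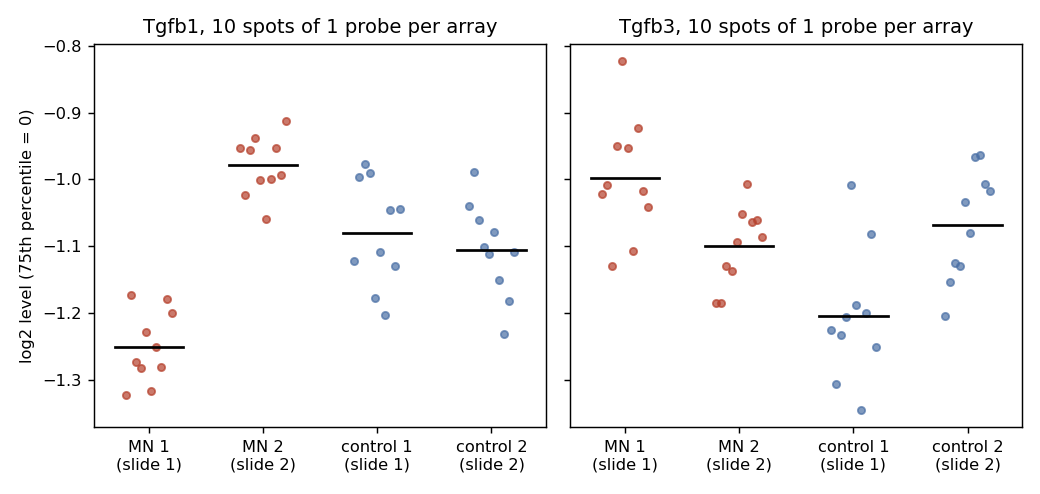
Log2 level of each of the 10 spots of the Tgfb1 and Tgfb3 probes on the 2 MN arrays (red) and the 2 control arrays (blue), with black bars for the mean of an array. For Tgfb1 the spots of the 2 MN arrays do not overlap each other and the means of both control arrays lie between theirs.

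Tgfb2, the isoform whose loss in mice is known to disturb kidney development, was read by 2 probes whose starts lie 1799 bases apart on chromosome 1. The brighter probe was at 0.87 and 0.81 in MN, against 1.15 and 0.89 in control. Both MN arrays were below both control arrays, but by little on slide 2 (-0.29 on slide 1 and -0.09 on slide 2), and the difference was -0.19 ± 0.17 (95% interval -0.65 to 0.28). The dimmer probe gave -1.22 and -1.44 in MN, against -1.06 and -1.42 in control, a difference of -0.09 ± 0.20 with overlapping groups. Both probes of Tgfb2 thus had small differences of the same sign, and limma's adjusted p was 0.9999 for each.

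Bmp7 was among the brightly measured members, with a raw signal 155 and 363 times the local background on the MN arrays and 138 and 228 times on the control arrays. Its log2 level was 3.24 and 3.37 in MN, against 3.11 and 3.39 in control. Control array 2 was the highest of the 4 and control array 1 the lowest, so the MN values lay inside the control range. The difference was 0.06 ± 0.18, a 1.04-fold level with a 95% interval of 0.743-fold to 1.46-fold (limma adjusted p = 0.9999), and it was 0.13 on slide 1 and -0.02 on slide 2. A loss of Bmp7 transcript below 0.743 of the control level, or a gain above 1.46-fold, lies outside that interval.

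Ltbp1, whose product holds latent TGF-beta in the matrix, was read by 2 probes that disagreed. They are shown because they lie 343585 bases apart on chromosome 17, the brighter at chr17:75790530-75790589 and the dimmer at chr17:75446945-75447004 (mm9, plus strand), and the scanner files list them under different transcripts. GC made up 35.0% of the bases of the brighter probe and 50.0% of the dimmer.
Ltbp1 brighter probe: ggaagtggaagagcttcatagagtttatta
Ltbp1 dimmer probe: tacgttggaccagaggctgcttcccaatac

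The brighter Ltbp1 probe was at -0.57 and -0.31 in MN, against -0.68 and -0.72 in control, and was the 1 member probe with both MN arrays above both control arrays (12.8% of all tested probes had this order). Its difference was 0.26 ± 0.17 (95% interval -0.20 to 0.72; limma adjusted p = 0.941), with 0.11 on slide 1 and 0.41 on slide 2. The dimmer probe was at -3.56 and -3.47 in MN, against -3.43 and -2.95 in control, with both MN arrays below both control arrays. Its difference was -0.33 ± 0.22 (95% interval -0.94 to 0.28; limma adjusted p = 0.950). Taking the mean of both probes gave -0.03, so the sign for Ltbp1 depends on the probe read.

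Of the receptors, Tgfbr1, the signalling kinase, had 4 probes on chromosome 4. The brightest was at 1.58 and 1.76 in MN, against 1.54 and 1.70 in control. The arrays ordered by slide rather than by group, and the difference was 0.05 ± 0.16 (95% interval -0.40 to 0.50; limma adjusted p = 0.9999), with 0.04 on slide 1 and 0.06 on slide 2. A second probe, whose start lies 2790 bases away, gave -0.08 ± 0.21, with raw signal only 2.82 to 3.79 times the local background. The other 2 probes, listed under other transcripts of the gene, were not tested. One was well above background on 1 of the 4 arrays (control array 2) and the other on 0 of 4, and no difference is drawn from them.

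Tgfbr2, the receptor that binds the ligand first, had 2 tested probes on chromosome 9 whose starts lie 2341 bases apart. They are shown because 1 array separated them. The brighter lies at chr9:115997155-115997214 and the dimmer at chr9:115999496-115999555 (mm9, minus strand).
Tgfbr2 brighter probe: tctagcggggaatttacagaatgctggtcc
Tgfbr2 dimmer probe: gggaggagctgctcccaggagaagattcca

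The brighter Tgfbr2 probe was at 3.07 and 2.89 in MN, against 3.25 and 3.07 in control. The MN array was lower on both slides by nearly the same amount (-0.19 on slide 1 and -0.18 on slide 2), and the difference was -0.18 ± 0.17 (95% interval -0.64 to 0.28; limma adjusted p = 0.9999). The dimmer probe was at -0.58 and -2.01 in MN, against -1.83 and -2.18 in control. MN array 1 was well above the other 3 arrays. The difference was 0.70 ± 0.54, the largest in absolute size among the member probes, with a 95% interval of -0.78 to 2.18 (limma adjusted p = 0.981). It was 1.24 on slide 1 and 0.17 on slide 2, and without MN array 1 it was -0.01. The value of this probe thus rests on 1 spot of 1 array, and that spot was not saturated.

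Among the SMADs, Smad3, the transcription factor that carries the TGF-beta signal into the nucleus, had values below control on both slides by both of its probes. They are shown because both probes had both MN arrays below both control arrays. The brighter lies at chr9:63494574-63494633 and the dimmer at chr9:63497492-63497551 (mm9, minus strand), with 2918 bases between their starts.
Smad3 brighter probe: tataaacgcccttctaataaacttttcacc
Smad3 dimmer probe: cgctgaaggtcagcgtataggtgatgtaca

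The brighter Smad3 probe was at 2.67 and 2.78 in MN, against 2.87 and 2.87 in control. Both MN arrays were below both control arrays, as they were for 20.7% of all tested probes, and the difference was -0.15 ± 0.14 (95% interval -0.54 to 0.25; limma adjusted p = 0.9999). The dimmer probe was at -3.93 and -3.84 in MN, against -3.42 and -3.57 in control, again with no overlap. It had the smallest p of the member probes (difference -0.40 ± 0.15; 95% interval -0.81 to 0.02; unadjusted p = 0.0585 and adjusted p = 0.744 in limma). The differences were -0.20 and -0.09 on slides 1 and 2 for the brighter probe, and -0.51 and -0.28 for the dimmer. Raw signal of the dimmer probe stood at 3.03 to 4.01 times its surroundings, and with normexp background correction its difference was -0.30.

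Smad7, the inhibitory SMAD that the pathway itself induces, lies on chromosome 18 and had 1 probe. Its log2 level was 0.51 and 1.01 in MN, against -0.0048 and 0.78 in control. The MN array was higher on each slide (0.51 on slide 1 and 0.23 on slide 2), but both slide 2 arrays were above both slide 1 arrays, so the groups overlapped. The difference was 0.37 ± 0.36, with a 95% interval of -0.61 to 1.36 (limma adjusted p = 0.9999, and 0.353 with the slide as a block).

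Counted over all 14 tested probes, 1 had both MN arrays above both control arrays and 4 had both below (the brighter Tgfb2 probe, the dimmer Ltbp1 probe and both Smad3 probes). The shares over the whole array were 12.8% and 20.7%. Of the 5 genes with more than 1 tested probe, Tgfb2 and Smad3 had probes of the same sign, and Ltbp1, Tgfbr1 and Tgfbr2 had probes of opposite sign. With 1 probe per gene, the brightest, the members' median was 0.05, with 5 of 9 above 0. The median over all 25297 tested genes was -0.05, with 38.6% above 0 and 61.4% below. Of the 9 brightest probes 3 had groups that did not overlap, against 33.1% of all tested genes, 0 reached 2-fold (2.63%) and 0 had an unadjusted p under 0.05 (6.69%).

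The rest of the pathway was examined in 7 lists holding 120 genes, of which 105 were tested, each by its brightest probe. None passed limma over all probes (0 of 105, against 0.0198% of all tested genes; smallest adjusted p = 0.492, and 0.217 with the slide as a block). At an unadjusted p under 0.05, 7 of the 105 had values above 0 and 5 below, where 3.40% and 3.29% of all tested genes did. The median over the 105 genes was 0.01.

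Among the other ligands, 21 of 29 were tested and 12 had values above 0 (median 0.06, with 0.12 on slide 1 and -0.12 on slide 2). Inhbb, which encodes the activin B subunit, was at -0.50 and -0.61 in MN, against 0.51 and 0.17 in control. The groups did not overlap, and the difference of -0.90 ± 0.19 was the largest in absolute size in the 7 lists (limma adjusted p = 0.498). Lefty1, an extracellular inhibitor of NODAL signalling, differed by 0.69 ± 0.17 (limma adjusted p = 0.552), and with normexp background correction its log2 difference was 0.30. Inha, the subunit that turns activin into inhibin, differed by 0.52 ± 0.16, and Bmp8a by 0.62 ± 0.38 with overlapping groups. No ligand passed.

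The other receptors varied little. Of 13 tested, 6 were above 0 and 7 below (median -0.04), and the differences ran from -0.12 to 0.30. Eng, which encodes endoglin, an endothelial co-receptor for TGF-beta and BMP9, was at 1.86 and 1.83 in MN, against 1.55 and 1.53 in control, a difference of 0.30 ± 0.14 that was 0.31 on slide 1 and 0.30 on slide 2 (limma adjusted p = 0.818). Acvrl1, the endothelial type I receptor that partners endoglin, was at 0.17 ± 0.19, Amhr2 at 0.20 and Acvr1b, an activin receptor, at -0.12.

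Of the SMADs and their partners 15 were tested, with 6 above 0 and 9 below (median -0.07). Smad9, which transmits BMP signals, had the largest absolute difference, -0.67 ± 0.19, with -3.01 and -3.37 in MN, against -2.45 and -2.59 in control (limma adjusted p = 0.622), and with normexp its log2 difference was -0.46. Tgif1, a nuclear repressor of SMAD activity, was at -0.30 ± 0.16, Zfyve9, which anchors SMADs at the receptor, at -0.30 ± 0.18, and Smurf1, which marks SMADs for degradation, at -0.21 ± 0.17. These 4, named for having the largest absolute differences of the list, all had both MN arrays below both control arrays. Over the whole list 4 of 15 genes had both MN arrays below and 2 of 15 had both above. The shares over all tested genes were 19.9% and 13.2%.

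Genes that store and release TGF-beta had a median of 0.01, with 9 of 15 above 0. Itgb6, the integrin chain that releases latent TGF-beta at epithelial surfaces, was at 2.02 and 2.26 in MN, against 2.55 and 2.66 in control, a difference of -0.47 ± 0.17, and its second probe gave -0.61 (limma adjusted p = 0.706 for the first). Ltbp2 differed by 0.43 ± 0.22, Fbn1, which encodes fibrillin-1, by 0.37 ± 0.14 and Emilin1 by 0.23 ± 0.18, and none of the list passed. Secreted antagonists and modulators had a median of 0.10, with 10 of 16 above 0, 6 with both MN arrays above both control arrays and 0 with both below (38.6%, 13.2% and 19.9% of all tested genes). Dcn, which encodes decorin, a proteoglycan that binds TGF-beta, differed by 0.56 ± 0.17, Grem1 by 0.40 ± 0.26 and Chrdl1 by 0.40 ± 0.18, these last encoding secreted BMP antagonists. Nog, which encodes the antagonist noggin, was at -0.31 ± 0.23.

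**Figure D4:**
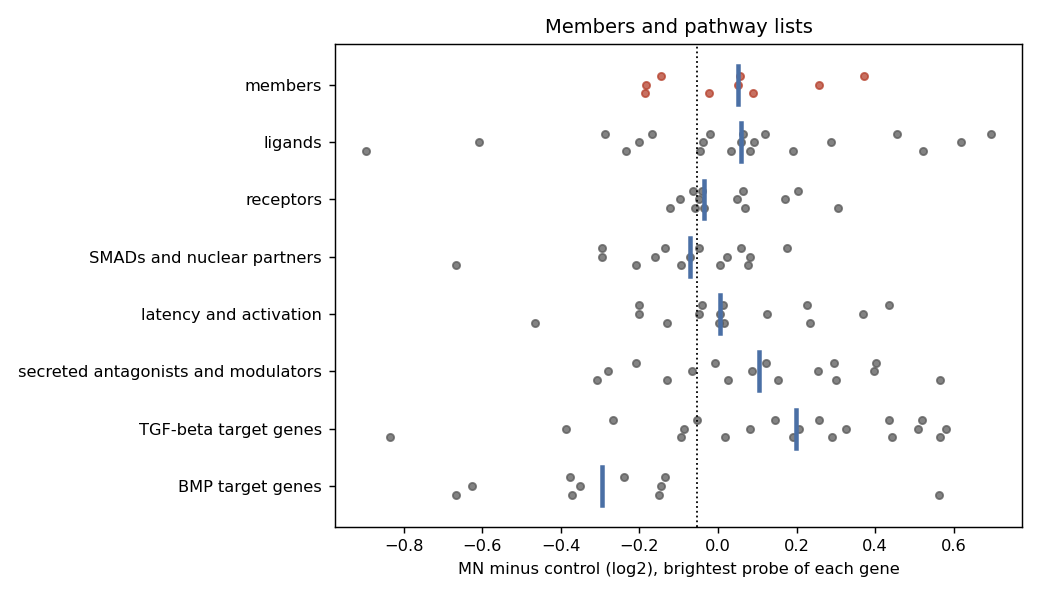
MN minus control (log2) for the brightest probe of each of the 9 members (red) and of the tested genes of 7 pathway lists (grey). Blue bars are the medians of the lists, and the dotted line is the median of all tested genes (-0.05). The median of the TGF-beta target genes lies at 0.20 and that of the BMP target genes at -0.30.

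Downstream of the members, known target genes of TGF-beta and of BMP signalling had medians of opposite sign. Of 20 tested TGF-beta targets 14 were above 0 (median 0.20, with 0.16 on slide 1 and 0.24 on slide 2), 13 had both MN arrays above both control arrays (13.2% of all tested genes did) and 2 had both below. Their summed signal, in units of the array's 75th percentile, was 96.6 to 98.3 on MN arrays and 103.6 to 106.5 on control arrays. Angptl4 alone gave 27.2% to 27.8% of it in MN and 42.6% to 48.6% in control, and without Angptl4 the sum was 70.3 to 70.9 in MN and 54.8 to 59.5 in control, the opposite direction. None passed, and the unadjusted p was under 0.05 for 3 higher and 1 lower gene. Ccn2, a matricellular gene long used as a readout of TGF-beta, had a log2 level of 4.48 and 4.63 in MN, against 3.96 and 3.99 in control, a difference of 0.58 ± 0.15 (limma adjusted p = 0.576). Acta2, smooth muscle actin, differed by 0.56 ± 0.28, and Timp1, an inhibitor of matrix proteases, by 0.52 ± 0.15 (0.33 with normexp). Angptl4, which is also a target of PPAR receptors, went the other way, with 4.77 and 4.71 in MN, against 5.46 and 5.69 in control (-0.84 ± 0.16; limma adjusted p = 0.492).

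Of 10 tested BMP targets 9 were below 0 (median -0.30, with -0.22 on slide 1 and -0.30 on slide 2), 6 had both MN arrays below both control arrays (19.9% of all tested genes did), and 1 had both above. Their summed signal was 42.2 to 43.3 on MN arrays and 53.5 to 55.5 on control arrays, and without the brightest, Id2, it was 18.8 to 18.9 in MN and 26.1 to 26.3 in control. None passed, and the unadjusted p was under 0.05 for 1 higher and 2 lower genes. Id3, an inhibitor of helix-loop-helix transcription factors that BMP signals induce, was at 3.12 and 3.16 in MN, against 3.71 and 3.83 in control, a difference of -0.63 ± 0.15 (limma adjusted p = 0.542). Its relative Id1 was at 2.51 and 2.31 in MN, against 2.90 and 2.68 in control (-0.38 ± 0.17; limma adjusted p = 0.817). Hey1, which NOTCH signalling also controls, was the 1 tested BMP target above 0, at 0.56 ± 0.15 (0.24 with normexp). Smad9, which stands in this list too, is given above. These lists were set up with earlier results of these data known, their genes respond to other signals as well, and no test of a list as a whole was made.

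**Figure D5:**
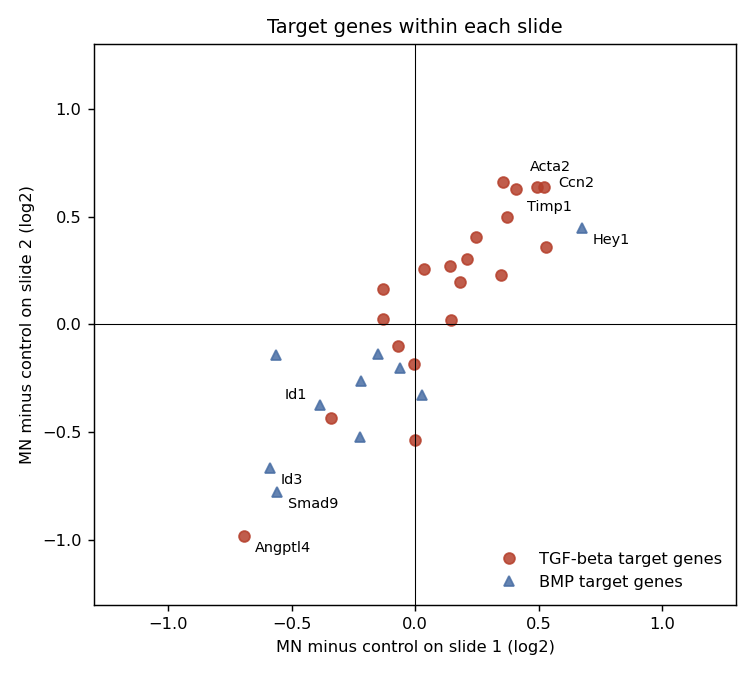
MN minus control on slide 1 (horizontal) and slide 2 (vertical), log2, for the tested TGF-beta target genes (red circles) and BMP target genes (blue triangles). Labels mark the 4 genes with the greatest absolute difference in each list. Ccn2, Acta2 and Timp1 lie above 0 on both slides, and Id1, Id3, Smad9 and Angptl4 below 0 on both.

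Markers of other cell types were summed per array in the same units, and because 1 bright gene can set such a sum, several sums are also given without their brightest gene, a step chosen after the data were seen. All 8 mesangial, fibroblast and smooth muscle markers were above 0 (median 0.33), with a sum of 27.1 to 29.4 in MN and 18.3 to 22.0 in control, and 7.83 to 8.60 in MN and 5.91 to 7.17 in control without Dcn. Of these 8, Acta2 and Col1a1 are also TGF-beta targets in the list above; without them 12 of 18 targets were above 0. Podocyte markers had 6 of 8 above 0 (median 0.56). Sums of endothelial markers (21.0 to 22.9 in MN, 19.8 to 23.3 in control), proximal tubule markers (783 to 982 in MN, 741 to 1057 in control), loop and distal tubule markers (354 to 377 in MN, 341 to 379 in control) and T and NK cell markers (6.67 to 9.80 in MN, 7.65 to 10.4 in control) overlapped between groups. Endothelial and proximal tubule sums still overlapped without their brightest genes, Flt1 and Slc27a2. Without Umod, the loop and distal tubule sum was 59.5 to 64.66 in MN and 64.66 to 75.2 in control. Without Cd4, the T and NK cell sum did not overlap (4.705 to 4.808 in MN, 5.335 to 5.392 in control). Of the 5 T and NK cell markers 0 were above 0. Collecting duct markers summed to 43.8 to 43.9 in MN and 50.3 to 52.3 in control, with a median of -0.09. Macrophage and dendritic cell markers summed to 20.8 to 22.0 in MN and 23.6 to 24.3 in control, but overlapped without Csf1r (3.63 to 4.64 in MN, 3.43 to 4.31 in control), and Cd163 was not well above background on any array. Neutrophil markers overlapped in sum (4.25 to 6.24 in MN, 3.01 to 4.43 in control) and did not without Elane (2.80 in both MN arrays, 1.599 to 1.92 in control). These markers did not move together. S100a8 and S100a9 differed by 1.49 and 0.93, Elane by 0.25 and Ly6g by -0.24, and Mpo was not tested. The sum of B and plasma cell markers was 2.59 to 2.80 in MN and 0.927 to 0.992 in control, and without Jchain 0.800 to 0.876 in MN and 0.732 to 0.791 in control. The platelet and erythroid sum (107.3 to 117.8 in MN, 68.2 to 77.7 in control) was 93.9% to 95.8% Hbb-bt, a globin gene, and the platelet markers Itga2b, Pf4 and Ppbp were at -0.28, -0.07 and 0.04 with overlapping groups. Fabp4 likewise made up 91.9% of the adipocyte sum in MN and 98.7% to 99.0% in control, and without it the sum was 1.48 to 1.58 in MN and 0.208 to 0.234 in control. Of the 6 adipocyte markers, 3 were well above background on all 4 arrays. Adipoq and Retn were so only on the 2 MN arrays. Their control levels are thus background, and no contrast is drawn from the sum without Fabp4. Adrenal cortex markers, which would mark adjoining tissue, had 1 of 5 above 0, with a sum of 0.798 to 0.977 in MN and 1.14 to 1.22 in control. The part of these cell types in the values of the pathway genes was not tested.

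The pathway genes with the profile nearest to each member were found by the Euclidean distance between log2 levels, centred on each gene's mean, over the 4 arrays and among 103 genes well above background on all of them. Taking each member's nearest gene, the shortest distances were those of Tgfbr2 with Smad1 (0.04), Tgfb2 with Itgav (0.05) and Tgfb3 with Pmepa1 (0.08). Smad1, a carrier of BMP signals, differed by -0.16, Itgav, an integrin chain, by -0.20 and Pmepa1, a TGF-beta target, by 0.08. Smad7 had no close neighbour, its nearest being Bmp8a at 0.33. Arrays of a slide share their slide in each profile, so a short distance describes slide and group alike.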

How the data were processed

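Each spot has a linear intensity that, per the file headers, came from Feature Extraction 10.5.1.1 (Agilent) after background subtraction with spatial and multiplicative detrending, with no scaling between arrays. The deposited table of values is in log2, and the steps the authors took to make it are not given in the sources used here. By comparison with the scanner files it matched scaled log2 signal minus the control mean, with column medians of -0.03 and -0.04 for MN and 0.03 and -0.03 for control, and its replicate columns were exchanged within both groups, so it served only as an alternative, for group differences. How its authors scaled it, and which order is right, are unknown.

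Log2 signals, less the 75th percentile of their array, were averaged over the spots of a probe, without control spots and non-uniform spots. A probe was tested if well above background (in most of its spots) on both arrays of a group. The test was that of limma 3.58.1 under R 4.3.3 (lmFit, eBayes, two-sided, Benjamini-Hochberg over 36271 probes, threshold 0.05, residual df 2), without a block. SE and 95% intervals are limma's. Scripts were tested on simulated data.

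Same-numbered arrays share a slide, per the file headers, and their deviations from group means correlated at 0.58, so the slide is a replicate block in the alternative fit. Both annotation versions and a RefSeq table (GRCm38.p6) named the same 16 probes. Positions are mm9, and exon annotation of that build was not used here. Probe stretches come from the scanner files. Members and lists were chosen with earlier results of these data known. The rule for named genes took all members and, per list, the 4 genes with the largest absolute difference among those well above background on all 4 arrays. The alternatives were normexp (offset 50), quantile or median scaling, the value table, other filters, probe rules and variance models, the block, and each array left out. The summed level of the podocyte markers is not reported here.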

Additional observations from a re-analysis of the deposited data

How the results depend on the processing

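Under all 16 alternatives 0 member probes and 0 pathway genes passed limma. The count of probes called over the array, 7, was 21 with normexp background correction, 23 with quantile normalization, 12 with the median of detected probes as scale and 18 with a trend in eBayes. It was 0 with no filter on dim probes, with only probes well above background on all 4 arrays, with robust eBayes and with the slide as a replicate block, and ran from 0 to 0 over the arrays left out in turn. The block changed no call among members or pathway genes. The dimmer Tgfbr1 probe turned to 0.0249 with quantile normalization. With the mean of a gene's probes, the values were -0.0347 for Ltbp1, -0.0167 for Tgfbr1 and 0.26 for Tgfbr2, because probes of opposite sign were averaged. With arrays left out in turn, 7 probes changed sign: Tgfb1 ran from -0.16 to 0.11, the dimmer Tgfb2 probe from -0.27 to 0.0860, Bmp7 from -0.0824 to 0.20, the brightest Tgfbr1 probe from -0.0388 to 0.14 and its second from -0.30 to 0.13, the dimmer Tgfbr2 probe from -0.0114 to 1.42, and Smad7 from -0.0214 to 0.77. Both Smad3 probes stayed below 0 under every alternative that tested them (-0.20 to -0.09 for the brighter and -0.47 to -0.29 for the dimmer). The mean of both Smad3 probes gave -0.27. In checks added after the data were seen, 13 to 18 TGF-beta targets were above 0 and 7 to 9 BMP targets below 0 over the same alternatives. The variance models, the block and the brightest-probe rule cannot change these differences or those of Smad3. Signs under those alternatives were therefore fixed in advance. With 2 arrays per group, differences of the size seen for most members were inside the spread between arrays of a group, which includes the difference between slides. With the slide as a block the SE was smaller for every tested member probe (0.13 against 0.36 for Smad7), and still 0 passed.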
